A study of Mus musculus with 55 samples.

Results

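The comparison described here asks what the milk sugar 3'-sialyllactose (3'SL) did to the acetylation of histone H3 at lysine 27 (H3K27ac) in macrophages that had seen bacterial lipopolysaccharide (LPS) for 6 h. It holds 4 of the 55 samples of the series, chosen by their labels: 2 chromatin immunoprecipitation sequencing (ChIP-seq) libraries of cells given 3'SL with LPS and 2 of cells given LPS alone. All came from bone marrow-derived macrophages of C57BL/6 mice, grown in L-cell conditioned medium as a source of M-CSF, starved of serum overnight, then treated for 6 h with LPS at 10 ng/ml, alone or together with 3'SL at 100 µg/ml. The libraries were compared within each replicate number, replicate 1 with replicate 1 and replicate 2 with replicate 2. Nothing in the labels says whether the replicates were separate animals or cultures, so p-values measure the spread between these samples only, which may be technical.

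H3K27ac is placed by acetyltransferases such as p300 and marks active promoters and enhancers. LPS is sensed by the receptor TLR4, which drives the transcription factors NF-kB, AP-1 and, through interferon, STAT and IRF factors to enhancers that lineage factors such as PU.1 and C/EBP hold open in macrophages. Cytokine, chemokine and acute-phase genes gain acetylation there, while many genes of resting macrophages lose it. 3'SL is a trisaccharide of human milk, lactose capped with sialic acid.

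The signal was read in 1000 bp windows around 97113 open-chromatin regions. It is given as normalised tags, that is, reads per 10000000 mapped reads after a further correction for the share of reads in windows. Libraries held 15.5 M reads (LPS, replicate 1), 7.42 M (LPS, replicate 2), 15.9 M (3'SL with LPS, replicate 1) and 39.6 M (3'SL with LPS, replicate 2). The share of reads in windows was 60.2% and 53.9% in the LPS and 3'SL with LPS libraries of replicate 1, and 73.1% and 73.2% in those of replicate 2. The replicate 2 library of 3'SL with LPS carries the word input in its source label and no antibody, but its share in windows was far from the 8.65 to 8.85% of the input libraries, so it was taken as the ChIP its title names. Replicate 1 values, which do not use it, stand beside those of replicate 2 in many places. Where only a mean or a median of means is given, it uses that library. Libraries called 2 h here are so titled, but the treatment labels of the LPS libraries of replicate 1 at that time say 1 h, and the PBS libraries of replicate 2 carry the bare numbers 2 and 6, read as hours. The replicate 2 library titled 3'SL with LPS at 2 h has source and treatment labels of an input and of vehicle, and 76.8% of its reads lay in windows. Replicates of a group differed by far more than counting noise, with a chi-square per degree of freedom of 15.3 for LPS and 32 for 3'SL with LPS.

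With 3'SL, H3K27ac was lower in both replicates at the acute-phase gene Saa3, at the endothelin gene Edn1 and, with smaller differences, at cytokine, chemokine and receptor genes such as Il6, Ccl7, Fpr1 and Siglece. Of the regions that LPS had raised at 2 h, 65.6% were lower with 3'SL in both replicates at 6 h, against 28.1% of all regions. Of those that LPS had lowered, 48.4% were higher in both, against 30.4% of all. Genes of cholesterol synthesis, liver X receptor (LXR) targets and housekeeping genes had median log2 changes of 0.09, 0.08 and 0.01, beside 0.06 over all genes. With 2 libraries a group, no single region or gene passed the test. In limma's test over all 15 timed H3K27ac libraries, 0 of 77387 regions (0%) and 0 of 14211 genes (0%) had a Benjamini-Hochberg adjusted p under 0.05, where an unadjusted p under 0.05 was reached by 478 regions (0.618%) and 90 genes (0.633%). edgeR's quasi-likelihood test and DESeq2 on the recovered reads also called 0 of each, with 443 and 364 regions and 85 and 80 genes at an unadjusted p under 0.05. With the replicate number as a block, limma again called 0, with 2266 regions and 368 genes at an unadjusted p under 0.05. In bulk chromatin, fewer cells carrying the mark and less of the mark in each cell cannot be told apart.

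A paired fit on the 4 libraries alone, added after the data were seen, gave calls: 861 of 62745 regions (1.37%), of which 716 were lower and 145 higher with 3'SL, and 27 of 13063 genes (0.207%), of which 23 were lower and 4 higher. That fit has 1 residual degree of freedom and borrows its spread across regions, and neither the 4 libraries without the pairing nor the pairing over all 15 libraries made a call. Its genes are described further on with that limit. The exact permutation test of 2 against 2 libraries cannot go below p = 0.333, so it is not used.

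The size of the mean change in a region was known only loosely. The 95% interval of limma's log2 change reached a median of 0.99 to either side among the 40458 regions that averaged at least 30 normalised tags over the 4 libraries, and 0.64 with the replicate block. The SE and interval of a single gene come from the fit without that block unless the block is named. None is adjusted for the number of genes tested. Changes in replicates 1 and 2 had the same sign in 58.4% of these regions, with a Pearson r of 0.28 and a Spearman rho of 0.25 across regions, which share their libraries and are no replicates. The standard deviation of the change was 0.29 in replicate 1 and 0.47 in replicate 2. In 398 regions (0.984%) the value with 3'SL was lower by 1.5-fold or more in both replicates, and in 185 (0.457%) it was higher by as much in both. Only 15 and 85 regions passed 1.5-fold in opposite directions. These sets were chosen by the values themselves, so their sizes are a description. On the authors' own scaling, which moves the median region to -0.14 in replicate 1 and 0.03 in replicate 2, against 0 and 0.06 here, the counts were 768 lower and 79 higher.

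**Figure D1:**
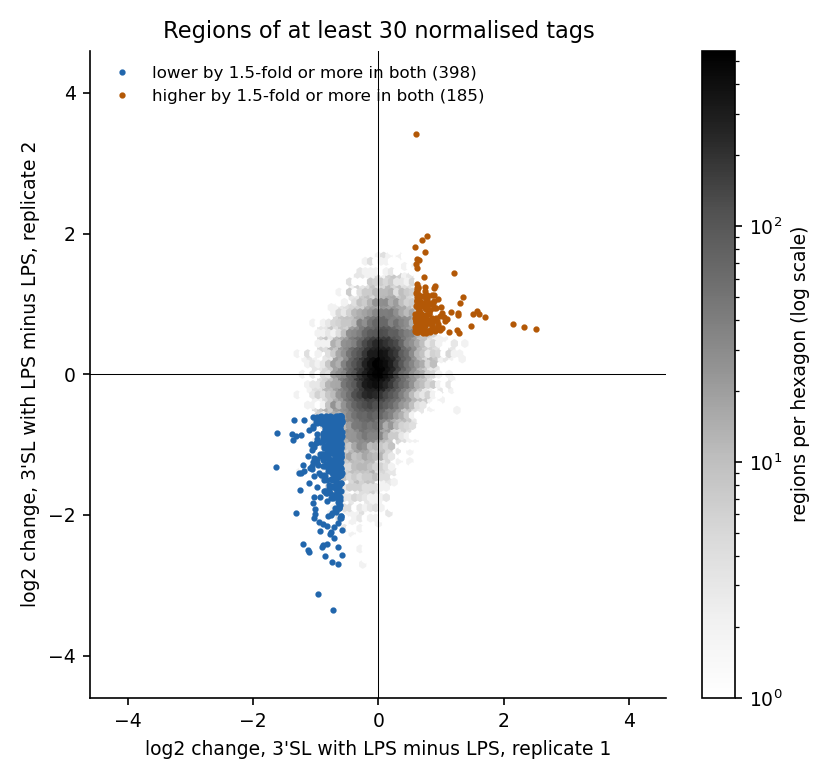
Log2 change of H3K27ac (3'SL with LPS minus LPS, 6 h) in replicate 1 (x axis) against replicate 2 (y axis) for 40458 regions of at least 30 normalised tags, as hexagons shaded by number of regions on a log scale. Blue points are the 398 regions lower and orange points the 185 regions higher by 1.5-fold or more in both replicates, and the cloud is taller than wide because replicate 2 varied more.

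Just inside the 1.5-fold limit on the lower side stood a region nearest to Gadd45a on chromosome 6, at -0.59 and -0.66, and just outside it one nearest to Cdc6 on chromosome 11, at -0.58 and -0.62. On the higher side they were one nearest to Fancb, at 0.59 and 0.86, and one nearest to Sorl1, at 0.58 and 1.31. At the level of genes, whose value sums the windows within 10 kb of the start site, 19 of 9739 genes with at least 50 normalised tags (0.195%) were lower and 17 (0.175%) higher by 1.5-fold or more in both replicates.

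Saa3, a serum amyloid A gene of the acute-phase response made by activated macrophages, had the largest difference shared by both replicates among the 9739 genes. Its 2 windows held 269.9 and 726.6 normalised tags with LPS (replicates 1 and 2) and 127.4 and 170.5 with 3'SL and LPS. Both values with 3'SL lay below both values without it, and the lone PBS library of 6 h held 29.2. The ratio was 0.472 in replicate 1 and 0.235 in replicate 2, a log2 change of -1.58 (SE 0.68, 95% interval -3.07 to -0.09, limma adjusted p = 1). With the replicate block the interval was -2.37 to -0.79. In the window over intron 2 of Saa3 on chromosome 7 (46714231 to 46715231, mm10) the values were 115.8 and 364 with LPS and 52.7 and 63.3 with 3'SL. The window upstream of the gene (46716647 to 46717647) held 154 and 363 with LPS and 74.8 and 107 with 3'SL, so both windows were lower in both replicates. Saa1, a neighbouring member of the family, went from 93 and 190.5 to 53.4 and 60.3, and Saa4, chosen after its values were seen, from 205 and 523 to 137 and 256.5. Saa1 has a near-identical copy in Saa2, so its reads may be shared with that copy.

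Edn1 encodes endothelin-1, a vasoconstrictor peptide that macrophages make under LPS. Its 5 windows within 10 kb held 217 and 176 normalised tags with LPS and 118 and 73.3 with 3'SL and LPS, with no overlap between the groups. The log2 change was -1.06 (SE 0.40, 95% interval -1.95 to -0.17, limma adjusted p = 1), with ratios of 0.544 and 0.416. With the replicate block the interval was -1.80 to -0.33. LPS had raised Edn1 by 2.16 at 2 h over PBS (limma adjusted p = 0.013). Within 100 kb, 20 windows at 15 separate positions on chromosome 13 had Edn1 as their nearest gene. Of these, 18 were lower with 3'SL in both replicates, beside 19552 of all 77387 regions tested. The summed signal of the 20 windows was 2452 and 2746 with LPS, 1608 and 1600 with 3'SL and LPS, and 546.6 in the PBS library. The strongest stood upstream of the gene. The window 42.8 kb away held 475 and 479 with LPS and 346.5 and 337.5 with 3'SL, and the one 55.3 kb away held 469.5 and 365 with LPS and 288 and 191 with 3'SL. Downstream, the window 27.2 kb away held 54 and 228 against 46.5 and 223, nearly the same. The 2 windows that were not lower in both replicates lie at the far end, 93.2 and 93.3 kb downstream.

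**Figure D2:**
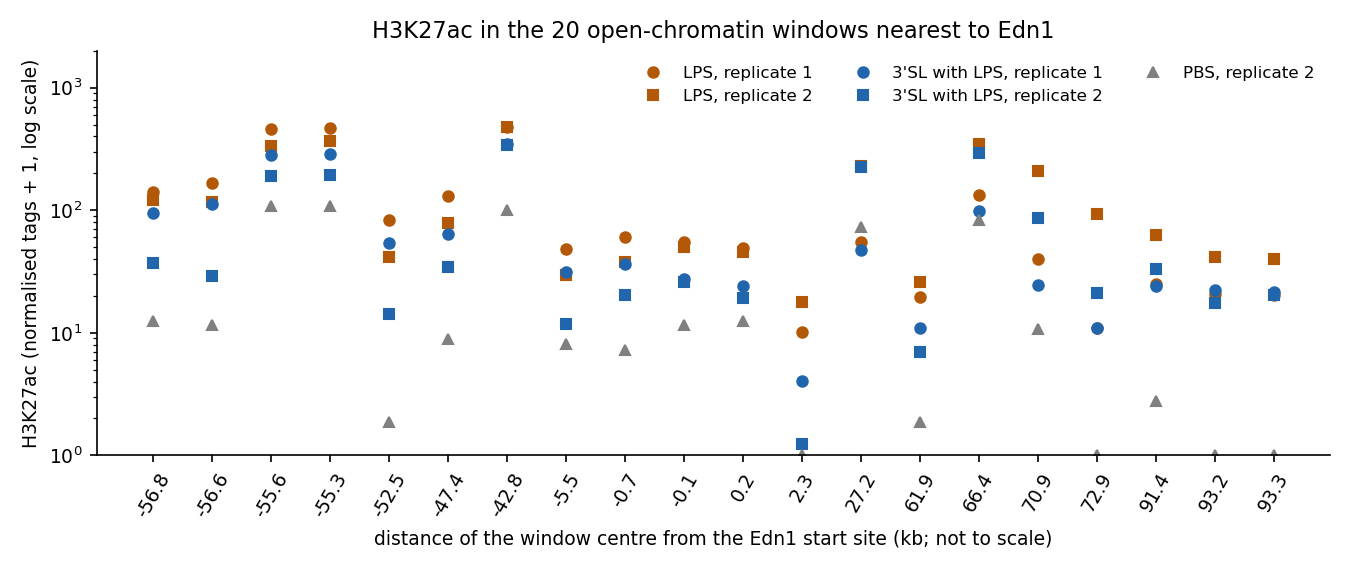
H3K27ac in normalised tags plus 1 (y axis, log scale) in the 20 windows whose nearest gene is Edn1, ordered by the distance of the window centre from its start site in kb (x axis, not to scale). Orange marks are LPS, blue marks 3'SL with LPS and grey triangles the PBS library, with circles for replicate 1 and squares for replicate 2, and from 56.8 kb upstream to 2.3 kb downstream each blue mark lies below the orange mark of the same replicate.

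The Edn1 locus is shown here by 3 stretches of the reference genome (mm10, plus strand), because it was lower across the most windows. They are the 250 bases before the start site from RefSeq (chr13:42301226-42301475) and the central 200 bases of the windows 55.3 kb (chr13:42246066-42246265) and 42.8 kb upstream (chr13:42258533-42258732). Capitals mark matches on either strand to 6 short patterns: NF-kB GGANNTTCC, AP-1 TGANTCA, PU.1 GAGGAAGT, C/EBP TTGCNNAA, IRF GAAANNGAA and SRE (sterol response) TCACNCCAC. Overlapping matches of different patterns were all counted. The promoter and the 55.3 kb window each hold an IRF match, and the 42.8 kb window a C/EBP match.
Edn1 promoter: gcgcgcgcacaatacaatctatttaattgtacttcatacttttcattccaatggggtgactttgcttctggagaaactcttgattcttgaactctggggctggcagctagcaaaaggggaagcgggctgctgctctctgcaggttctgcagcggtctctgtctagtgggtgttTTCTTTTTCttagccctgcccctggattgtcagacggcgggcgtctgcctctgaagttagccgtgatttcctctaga
Edn1 55.3 kb upstream: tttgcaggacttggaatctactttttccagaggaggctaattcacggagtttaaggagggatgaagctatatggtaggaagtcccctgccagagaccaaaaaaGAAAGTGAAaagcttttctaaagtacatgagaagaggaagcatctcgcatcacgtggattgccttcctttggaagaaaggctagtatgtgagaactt
Edn1 42.8 kb upstream: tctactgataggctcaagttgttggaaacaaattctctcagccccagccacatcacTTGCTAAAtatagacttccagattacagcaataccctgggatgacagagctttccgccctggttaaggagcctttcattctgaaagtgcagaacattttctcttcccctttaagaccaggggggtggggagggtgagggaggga

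Among all 77387 regions tested, the central 200 bases match the IRF pattern in 8.14%, C/EBP in 10.7%, AP-1 in 18.4%, PU.1 in 9.8%, NF-kB in 4.3% and SRE in 0.925%. Of 32851 promoters, read over 250 bases, 7.13%, 9.56%, 6.75%, 2.44%, 3.59% and 1.05% match them in the same order. A match describes letters and is no evidence of binding.

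Inflammatory genes under NF-kB were lower as a group. Of 45 genes on the list, 44 had enough signal to be tested, none was called, and 28 (63.6%) were lower with 3'SL in both replicates, against 20.5% of all 14211 genes. Only 3 were higher in both, against 35.4% of all genes. For 13 genes of the list both values with 3'SL lay below both values with LPS (6% of all genes did so), and for 0 they lay above (12.4% of all genes). The median log2 change was -0.25, -0.13 in replicate 1 and -0.39 in replicate 2, where the median over all genes was 0.06, 0.02 and 0.10. With reads thinned to equal depth the medians of the list were -0.17 and -0.45. It was also negative on the authors' scaling (-0.33) and with quantile normalization (-0.27).

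The cytokine genes gave differences of unequal size. Il6, a fever and acute-phase cytokine, held 123 and 190.5 normalised tags with LPS and 84.7 and 95.7 with 3'SL, lower in both and not overlapping (log2 change -0.76, SE 0.54, limma adjusted p = 1). Tnf held 871 and 995 with LPS and 836 and 684 with 3'SL, a difference carried by replicate 2 (-0.06 and -0.54). Il1b, which encodes interleukin-1 beta, held 1408 and 1642 against 1053 and 1303, with changes of -0.42 and -0.33. Il1a held 131 and 52.2 with LPS and 83.2 and 26.9 with 3'SL, so the replicates differed more than the groups. Il12b, a subunit of interleukin-12 and interleukin-23, was near the floor of the assay at 18.5 and 26.1 against 22.9 and 15.7. The lowest of the list was Il12a, the other interleukin-12 subunit, at a change of -1.29, and the highest Csf2 at 0.83, both on weak signal (means of 15.4 and 3.63).

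Chemokine genes differed among themselves in size and in which replicate was further apart. Ccl5, a T cell and monocyte attractant, held 1320 and 884.5 with LPS and 1178 and 421 with 3'SL, changes of -0.16 and -1.07. Without the replicate 2 library of 3'SL with LPS the fitted change of Ccl5 was 0.11. That fit has no replicate block and sets the replicate 1 library against both LPS libraries, where the change within replicate 1 was -0.16. Cxcl10, a target of interferon, held 612 and 385 against 543 and 336. Around Ccl2, the main monocyte attractant, 17 of 17 windows nearest to the gene within 100 kb were lower in both replicates, beside 19552 of all 77387 regions tested. These windows lie at 10 separate positions, and in 10 of the 17 the groups did not overlap. Their summed signal was 2018 and 3551 with LPS, 1411 and 1948 with 3'SL, and 1962 in the PBS library of 6 h. The neighbouring gene Ccl7 had 5 windows at 3 separate positions, of which 4 were lower in both. They summed to 472 and 978 with LPS, 309 and 516.5 with 3'SL, and 103 with PBS. Ccl4, Cxcl1 and Cxcl2 were lower in both, by more in replicate 1 (-0.34, -0.32 and -0.40) than in replicate 2 (-0.10, -0.04 and -0.30). Ccl9 was not lower in both, at -0.01 and 0.18. All but Ccl5 and Cxcl10 were picked out after their values were seen.

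Nos2, the inducible nitric oxide synthase, held 246 and 203.5 with LPS and 198 and 74 with 3'SL. Acod1, which makes itaconate, held 849 and 553 against 640 and 288. Ptgs2, the inducible cyclooxygenase, held 57.5 and 74.4 against 55 and 28.4, equal in replicate 1. Socs3, a brake on cytokine receptors, held 2177 and 3020 against 1741 and 2163, lower in both and not overlapping. The NF-kB inhibitors differed less: Tnfaip3 by -0.10 and -0.40, and Nfkbia by -0.10 and -0.12. Il10, the main anti-inflammatory cytokine, went the other way, from 340 and 445 to 397 and 510, a change of 0.21 with an SE of 0.39. Of 24 anti-inflammatory and feedback genes, 9 were lower and 9 higher in both replicates (37.5% each), with a median change of 0.05. Of all genes, 20.5% were lower and 35.4% higher in both.

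**Figure D3:**
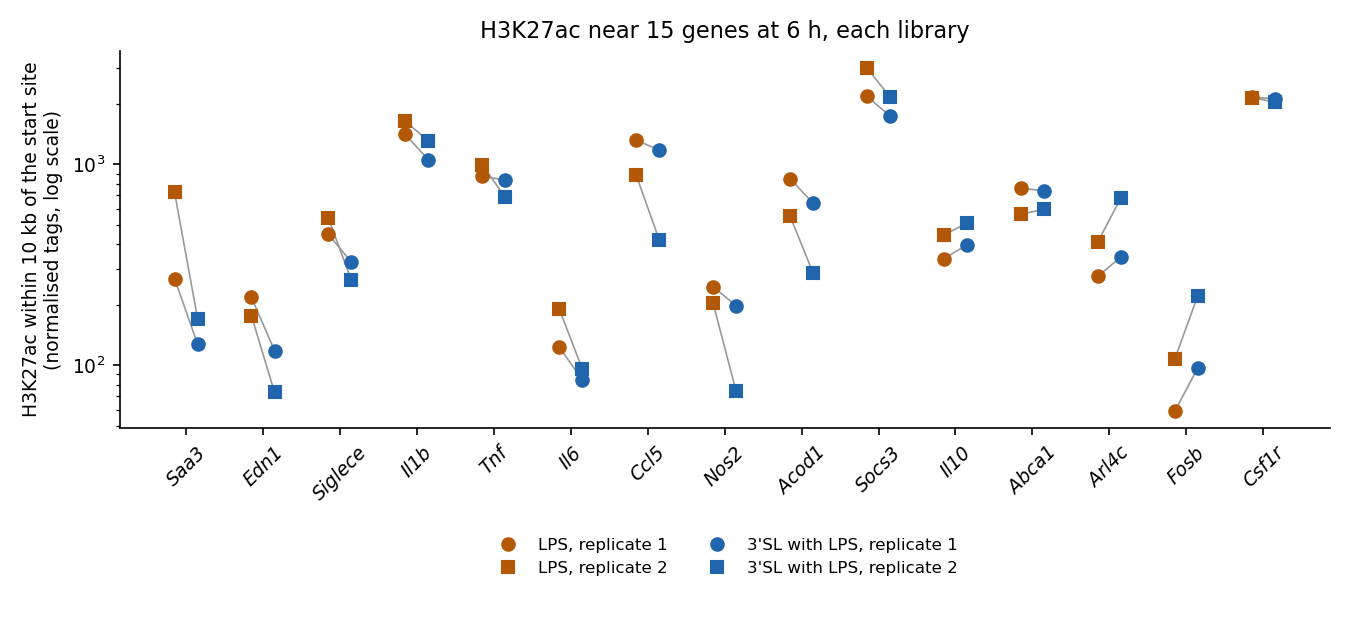
H3K27ac summed within 10 kb of the start site of 15 genes (y axis, normalised tags, log scale), with 1 mark per library and lines joining libraries of the same replicate. Saa3, Edn1, Siglece, Il1b, Tnf, Il6, Ccl5, Nos2, Acod1 and Socs3 slope down from LPS (orange) to 3'SL with LPS (blue) in both replicates, and Il10, Arl4c and Fosb slope up.

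Interferon-response genes, which LPS induces through its own interferon loop, were lower in both replicates in 15 of 33 cases (45.5%, against 20.5% of all genes) and higher in both in 1 (3.03%, against 35.4%), with a median change of -0.01 (-0.07 and -0.01 by replicate). They ran from -0.33 for Mx1 (-0.32 and -0.34 by replicate) to 0.27 for Ifnb1, which was lower in replicate 1 (-0.17) and higher in replicate 2 (0.71). At 2 h 29 of the 33 were lower with 3'SL in both replicates, with medians of -0.35 and -0.42. The 24 genes of TLR4 signalling had 7 lower and 7 higher in both (29.2% each), with a median of 0.02 that turned to -0.06 on the authors' scaling. The lowest of these was Irak3, an inhibitor of the pathway, at -0.75 (-0.39 and -1.11 by replicate). The highest was Tlr4 itself at 0.31, from -0.04 in replicate 1 and 0.66 in replicate 2.

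Siglec receptors bind sialic acids such as the cap of 3'SL. Of the 19 tested genes of Siglecs and sialic acid metabolism, 8 (42.1%) were lower in both replicates, against 20.5% of all genes. Siglece, an inhibitory receptor of mouse macrophages and neutrophils, held 448 and 539 normalised tags with LPS and 325 and 265 with 3'SL, with no overlap. The log2 change was -0.74 (SE 0.37, 95% interval -1.56 to 0.08, limma adjusted p = 1). With the replicate block the interval was -1.28 to -0.20. Cd33, another Siglec on chromosome 7, had 7 windows at 5 separate positions within 100 kb, of which 6 were lower in both replicates. Of all 77387 regions tested, 19552 were lower in both. The 7 windows of Cd33 summed to 459 and 293.5 against 293 and 138. The PBS library of 6 h held 726 there, above both LPS libraries, unlike at Saa3 and Edn1. Siglec1 differed by -0.12 and -0.44 and Siglecg by -0.61 and -0.24. Cd33, Siglec1 and Siglecg were picked out after their values were seen. At the other end of the list stood St6gal1, which adds sialic acid in another linkage, at 334 and 124 with LPS and 440 and 413 with 3'SL. The lowest, St3gal6, had almost no signal (mean 5.48). In all, 3 of the 19 (15.8%) were higher in both replicates, against 35.4% of all genes. The median change was 0.02, or -0.06 on the authors' scaling.

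Of 26 tested genes of cholesterol synthesis and uptake, 15 (57.7%) were higher and 4 lower in both replicates, beside 35.4% and 20.5% of all genes, with a median of 0.09 that was 0.0074 on the authors' scaling. Mvd, an enzyme of the mevalonate pathway, was the lowest of the list, at a log2 change of -0.11. Of 18 LXR targets, 8 were higher and 5 lower in both, with a median of 0.08, or -0.0044 on the authors' scaling. Abca1, the cholesterol exporter, held 761 and 565 against 739 and 597, and Abcg1 503 and 219 against 472 and 166. Arl4c stood out on the higher side, at 277 and 411 against 346 and 680, and Mertk, a receptor for dying cells, was the highest at 0.75. Srebf1, the lipogenic regulator, differed by 0.11 and 0.07, and Scd2 by -0.12 and -0.02. The 13 genes of fatty acid synthesis had 7 higher and 3 lower in both.

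**Figure D4:**
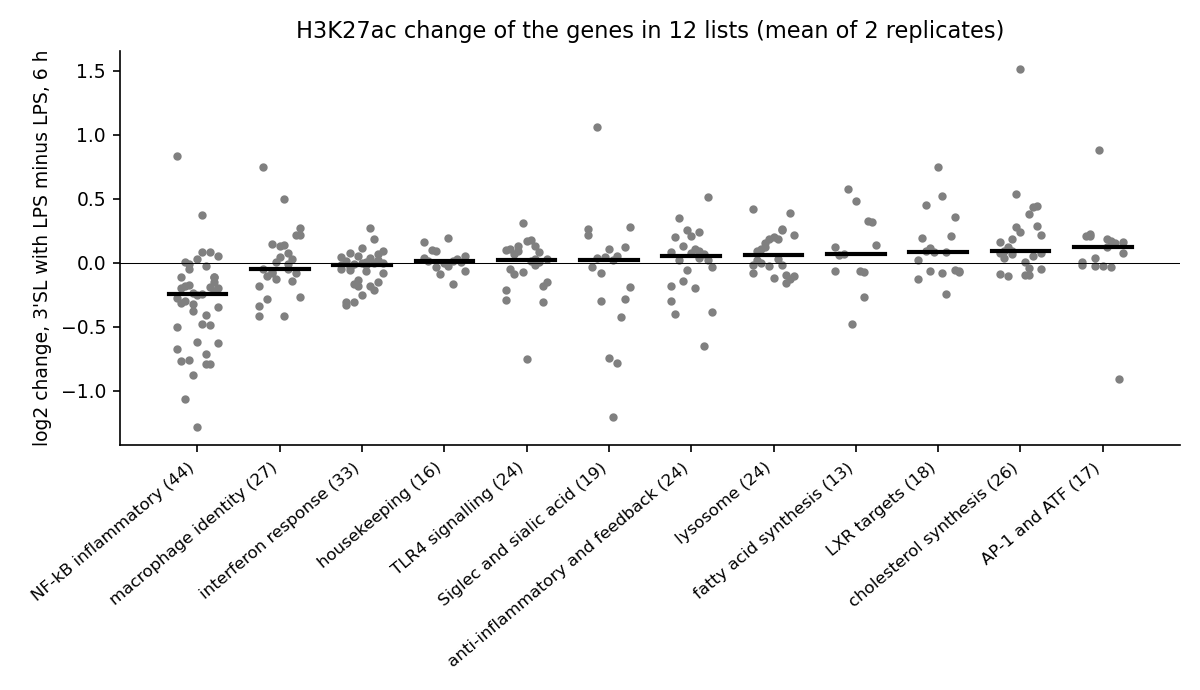
Log2 change (3'SL with LPS minus LPS, 6 h, y axis) of each tested gene of 12 lists, 1 point per gene, as the mean of the replicates. Black bars are medians and the number of genes stands in brackets, with the NF-kB inflammatory list lowest at -0.25 and the other medians between -0.05 and 0.12.

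Macrophage genes served as a check of the label. All 10 macrophage markers had strong signal, with a summed level of 17480 and 19630 with LPS and 15850 and 17510 with 3'SL. Of these, 8 (80%) were lower and 0 higher in both replicates, against 20.5% and 35.4% of all genes. The list ran from -0.34 for Msr1 to 0.0026 for Mpeg1 with a median of -0.15. A shift toward lower values was thus not particular to the inflammatory list. Csf1r, the receptor for M-CSF, was nearly level at 2159 and 2149 against 2122 and 2043. Their part in the lower signal of the inflammatory list was not tested. Markers of other cells ranged from weak to well covered. The 10 of neutrophils summed to 195 and 96.5 against 186 and 43.4, the 10 of T cells to 296 and 382 against 293 and 396, and the 8 of natural killer cells to 137 and 52.2 against 108 and 44.4. The 8 of dendritic cells summed to 2222 and 2499 against 2142 and 2308, with 3 of 6 tested higher and 2 lower in both replicates, and the 10 of B cells to 968 and 620 against 941 and 669. The erythroid list summed to 673 and 774 against 605 and 636, and the fibroblast list to 582 and 483 against 555 and 347. Their part in the differences was not tested either. Between 3 and 4 markers of each of these lists other than the dendritic one had no window within 10 kb. The 16 housekeeping genes had a median change of 0.01 and ranged from -0.17 to 0.19. The 24 lysosomal genes had a median of 0.06, with Ctsd, a cathepsin, at 2754 and 2846 against 2945 and 2764.

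The genes that stood highest with 3'SL in both replicates included several with weak signal. Ccdc66 held 46.9 and 40.4 with LPS and 83.9 and 74.5 with 3'SL, without overlap (change 0.85, SE 0.31, limma adjusted p = 1). Fosb, an AP-1 subunit, held 59 and 107 against 96.9 and 222, while the PBS library held 676. Panx1, a membrane channel, held 130 and 66.5 against 229 and 111, and Lpin1, a phosphatidate phosphatase and coactivator, 53.3 and 24.8 against 83.2 and 51.6. For Fosb, Panx1 and Lpin1 the replicates overlapped between groups, so the difference shows only within each replicate. Xpa, Pdcd5, Nsmce4a and 4921531C22Rik completed the 8 highest, and Il1f10, Bst1, Acbd4, Grap and 4930431P22Rik the 8 lowest beside Saa3, Edn1 and Saa1.

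The paired fit on the 4 libraries named 23 genes that were lower, 13 of which LPS had raised at 2 h against PBS by limma's test in libraries not used at 6 h, and 4 that were higher, 1 of which LPS had lowered. For comparison, LPS raised 477 and lowered 241 of 14211 genes at 2 h. Saa3 had the smallest adjusted p in that limma fit (0.00113), followed by Edn1, Ccl7, Csf3, Ctu1 and Fpr2 (0.0199 each). Fpr1 and Fpr2 encode receptors for bacterial formyl peptides. Fpr2 held 1288 and 1405 with LPS and 918 and 515.5 with 3'SL, and Fpr1 538 and 740 against 380 and 248. Csf3, the granulocyte growth factor, held 414 and 1092 against 281 and 539. Aoah, the enzyme that detoxifies LPS, held 3215 and 3210 against 2500 and 1827, the highest signal among the 27. Irak3 held 973 and 1144 against 743 and 529, and Il1rn, the interleukin-1 receptor antagonist, 678 and 1058 against 510 and 572. Saa1 and Irak3 had adjusted p-values of 0.0363, Siglece, Il1rn and St6gal1 of 0.0372, and Acod1 and Mir155hg, the host of the microRNA miR-155, of 0.0391. In all 27 genes the change was larger in replicate 2 than in replicate 1, and in the fit over all 15 libraries each adjusted p was 1. These genes were chosen after their values were seen.

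The 398 lower regions fell at 359 separate positions, of which most were distal: 276 (69.3%) lay more than 10 kb from a start site and 25 (6.28%) within 1 kb, against 41.8% and 37.4% of all 40458 regions. The 185 higher regions were mostly distal too (60%, with 23.8% within 1 kb). LPS had raised 94 of the 398 lower regions (23.6%) at 2 h, against 5.10% of all regions, and lowered 1. Of the 185 higher regions, at 172 positions, LPS had raised 0 and lowered 24 (13%), against 3.35% of all regions. The lower regions matched the C/EBP pattern in 20.4% and the NF-kB pattern in 9.05% of cases. All regions matched these in 10.4% and 4.35%, distal regions in 13.8% and 4.51%, and regions raised by LPS in 13.8% and 10.7%. The higher regions matched at 10.3% and 4.32%. AP-1 and PU.1 patterns matched in 19.1% and 8.29% of the lower regions and in 17.3% and 8.57% of all regions. Among distal regions they matched in 25.9% and 11.7%, more often than in the lower regions. A peak of the NF-kB subunit p65, from macrophage libraries with and without the lipid A KLA that the submitters re-analysed, lay at the centre of 13 lower regions (3.27%) and 1.82% of all regions. The p65 list holds 41220 peaks, yet only 736 of the 40458 regions had one, where 24480 LXR peaks marked 16039 regions. Why so few p65 peaks met a region was not tested, so their shares cannot tell which regions NF-kB bound. Peaks of LXR, mapped under its agonist GW3965, lay at 25.1% of the lower, 41.1% of the higher and 39.6% of all regions. Among distal regions the share was 47.8%. Signal was weaker in both sets, with medians of 54.4 and 46.3 normalised tags against 108 over all.

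The 2065 regions that LPS had raised at 2 h had a median change of -0.15 in replicate 1 and -0.33 in replicate 2, where all regions had -0.02 and 0.05. The 1355 regions that LPS had lowered had medians of 0.04 and 0.29. Among regions raised by LPS, those more than 10 kb from a start site had medians of -0.20 and -0.50 and promoters -0.07 and -0.14. At equal depth the medians of all regions raised by LPS were -0.14 and -0.40. Regions with a p65 peak had medians of -0.08 and -0.06. Where LPS had also raised them (85 regions) these were -0.16 and -0.49, beside -0.15 and -0.33 for regions raised by LPS with no p65 peak. Because so few p65 peaks met a region, this split cannot tell regions bound by NF-kB from others. Across the 40458 regions, the Spearman rho between the LPS response at 2 h and the change with 3'SL at 6 h was -0.17 in replicate 1 and -0.34 in replicate 2. Those comparisons have no library in common, but regions share base composition and level.

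**Figure D5:**
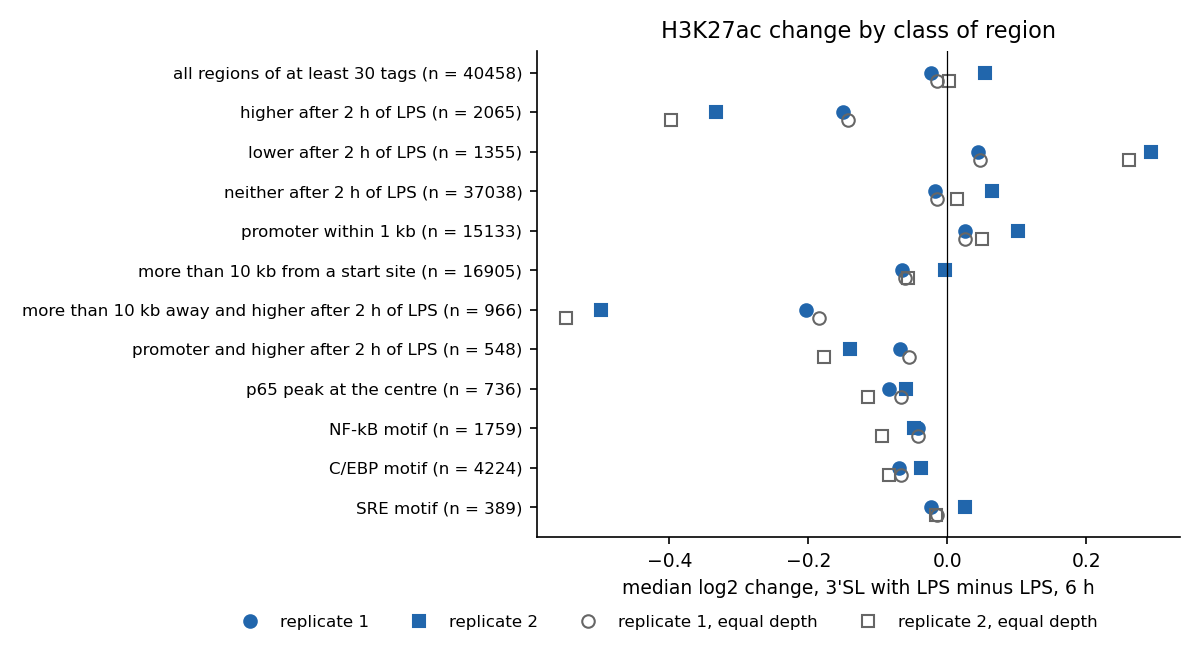
Median log2 change of H3K27ac (3'SL with LPS minus LPS, 6 h, x axis) in 12 classes of regions, the number of regions in brackets, for replicate 1 (filled circles) and replicate 2 (filled squares), and after thinning reads to equal depth (open marks). Distal regions raised by LPS at 2 h lie farthest left, at -0.20 and -0.50, and regions lowered by LPS farthest right, at 0.04 and 0.29.

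The single regions with the largest differences shared by both replicates were chosen by those values. On the lower side, a region on chromosome 2, 87.3 kb upstream of the integrin gene Itga4 (79167627 to 79168627), held 45.5 and 48.3 normalised tags with LPS and 19.1 and 8.23 with 3'SL, against 1.77 in the PBS library. LPS had raised it by 4.48 at 2 h (limma adjusted p = 0.0101). An intron of C77080 on chromosome 4 (129233992 to 129234992) held 71.7 and 30 against 29.8 and 10.7. A region 126 kb from Gm5129 on chromosome 5 (29861211 to 29862211) held 34.1 and 99.1 against 13.7 and 31.2. The other 3 lay near Dgkh, near Bcl11b and in an intron of Fggy, with ratios between 0.248 and 0.404. The groups overlapped for the regions near Dgkh and Bcl11b and for none of the other 4 named here.

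On the higher side, 3 overlapping windows in an intron of Exoc6b on chromosome 6, whose nearest start site is that of Cyp26b1, a retinoic acid hydroxylase, were higher by 1.95 to 2.74 times. The first (84660771 to 84661771) held 45.5 and 57.4 with LPS and 107 and 157 with 3'SL, against 147 in the PBS library. The third (84661387 to 84662387) held 54 and 80.9 against 108 and 157.5. A region 41.1 kb from Ap1s2 on chromosome X (163867408 to 163868408) held 18.5 and 32.6 against 36.6 and 69.5, and 134 with PBS. The others lay 32 kb from Creb3l1 and in an intron of Sv2c. For the Exoc6b and Sv2c introns and Ap1s2 both values with 3'SL exceeded both with LPS.

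The central 200 bases (mm10, plus strand) of 3 lower and 2 higher of these regions are shown as examples of matches to the patterns counted above, again in capitals. They are chr2:79168028-79168227 near Itga4 and chr4:129234393-129234592 in C77080, each with an NF-kB match, and chr5:29861612-29861811 near Gm5129, with a C/EBP and an AP-1 match. The higher ones are chr6:84661788-84661987 in the Exoc6b intron, with an AP-1 and a C/EBP match, and chrX:163867809-163868008 near Ap1s2, with a C/EBP match. Matches also lay in regions not shown. On the lower side these were a PU.1 match near Bcl11b and an AP-1 match in Fggy. On the higher side the region in Sv2c held an NF-kB and an AP-1 match.
Lower, near Itga4: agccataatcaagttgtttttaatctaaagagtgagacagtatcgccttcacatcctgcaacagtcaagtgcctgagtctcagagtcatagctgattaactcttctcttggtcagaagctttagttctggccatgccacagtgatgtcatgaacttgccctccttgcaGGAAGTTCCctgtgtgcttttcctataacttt
Lower, in C77080: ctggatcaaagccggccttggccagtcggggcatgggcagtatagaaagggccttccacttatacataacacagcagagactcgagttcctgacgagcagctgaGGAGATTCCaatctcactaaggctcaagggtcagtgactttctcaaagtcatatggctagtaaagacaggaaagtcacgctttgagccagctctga
Lower, near Gm5129: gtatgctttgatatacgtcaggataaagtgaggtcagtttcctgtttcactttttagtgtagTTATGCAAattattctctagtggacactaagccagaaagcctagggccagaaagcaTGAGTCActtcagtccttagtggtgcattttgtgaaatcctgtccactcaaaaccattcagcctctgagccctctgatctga
Higher, in Exoc6b: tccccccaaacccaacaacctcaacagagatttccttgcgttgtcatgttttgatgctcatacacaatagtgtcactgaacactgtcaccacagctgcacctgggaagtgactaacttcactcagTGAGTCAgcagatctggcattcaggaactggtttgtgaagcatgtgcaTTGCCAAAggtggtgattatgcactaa
Higher, near Ap1s2: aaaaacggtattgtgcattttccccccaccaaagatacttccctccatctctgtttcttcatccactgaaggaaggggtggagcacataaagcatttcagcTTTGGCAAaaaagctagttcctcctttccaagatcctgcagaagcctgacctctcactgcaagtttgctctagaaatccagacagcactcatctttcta

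Binding of p300 at 6 h, measured in 4 other libraries, was also lower at the lower regions, mainly in replicate 2. Of the 398 lower regions, 366 had enough p300 signal, and their median p300 change was -0.15 in replicate 1 and -0.66 in replicate 2, where all regions had medians of 0.15 and -0.01. In 156 of the 366 (42.6%) p300 was lower in both replicates, against 21.7% of all regions. The higher regions had medians of 0.26 and 0.33, and 36.9% of 160 were higher in both, against 29.3%. At Saa3, p300 held 68.4 and 83.2 normalised tags with LPS and 37.3 and 36.3 with 3'SL, and at Siglece 85.5 and 84.3 against 61.7 and 53.6. At Edn1 it held 36.1 and 80 against 31.4 and 20.5, apart in replicate 2 only. The NF-kB inflammatory list as a group did not share this. In 10 of its 44 tested genes p300 was lower in both replicates, beside 3509 of all 14211 genes. Its median p300 changes were 0.16 and -0.14 in replicates 1 and 2, beside 0.05 and -0.04 over all genes. The p300 libraries of replicate 1 had 6.12% (LPS) and 9% (3'SL with LPS) of reads in their 200 bp windows and those of replicate 2 had 20.9% and 23.5%.

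At 2 h, in 4 further H3K27ac libraries, 189 of the 398 regions (47.5%) were also lower with 3'SL in both replicates, against 23.5% of all regions, with medians of -0.15 and -0.30. Of the 185 higher regions, 95 (51.4%) were higher in both at 2 h, against 28%. Edn1 held 152 and 88.3 with LPS and 83.8 and 44 with 3'SL at 2 h, so its change there (-0.85 and -0.99) was close to that at 6 h. Saa3 did not differ at 2 h in replicate 1 (76.1 and 161 against 76.2 and 117), and Siglece differed by 0.36 in replicate 1 and -0.27 in replicate 2. In the limma test of the 6 h change against the 2 h change, 0 of 77387 regions (0%) were called, and 257 had an unadjusted p under 0.05. The difference was -0.14 for Edn1, -1.35 for Saa3 and -0.79 for Siglece, each with an adjusted p of 1.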

How the data were processed

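H3K27ac and p300 ChIP-seq values were deposited by the authors as normalised signal per region, which per the file headers is HOMER's tag count scaled to 10000000 reads, over mm10 open-chromatin regions. The peak files hold positions only. Bowtie2, HOMER and DESeq2 are named in the submitters' processing notes, without versions. The deposited signal gave back whole reads in 100% of values (within 0.05). It was rescaled by reads in kept windows and trimmed means (TMM), and log2(value + 1) was tested with limma 3.58.1 (trended, R 4.3.3) over 15 libraries, with Benjamini-Hochberg adjustment, after edgeR's low-count filter. Fold changes are on that scale, which understates changes of low values. A gene's value sums windows within 10 kb whose nearest start site is its own. Because the unit is signal, edgeR 4.0.16 and DESeq2 1.42.0 on the recovered reads were alternatives. The script was tested on simulated data.

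Same-numbered libraries deviated together (correlations of 0.445 to 0.67 over 21 pairs of groups), so the numbers were taken to pair the samples. The 11 value columns that match no sample label were not used. Named genes were the 8 in each direction with the largest change shared by both replicates (mean of at least 50 normalised tags), 24 of 26 genes fixed from the lists (the others are not reported here), and each list's extremes. For regions these were 6 and 30. Members and lists were chosen with earlier results of these data known.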

Additional observations from a re-analysis of the deposited data

How the results depend on the processing

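No region or gene was called for the 6 h comparison by limma, edgeR or DESeq2 under any planned scaling, pseudocount, filter, gene window or region set, nor with the replicate block (0 regions, 2266 at an unadjusted p under 0.05, and 0 genes, 368). Leaving out each library in turn, with the lone sample of a group assumed to vary like the other groups, gave 0 to 0 calls. The 4 libraries alone with the replicate block, added after the data were seen, gave 861 regions and 27 genes. That fit called 37 of the named genes and regions, all with an adjusted p of 1 in the 15 libraries, and the block changed no other call. The genes counted here include all 27 that the fit itself called, and the regions were chosen by their own change. The count of 37 therefore gives these members no support. The share of all tested regions with the same sign in both replicates was 55.5%, and became 53.3% on the authors' scaling, 54.9% with quantile normalization, 53.6% with reads thinned to the shallowest library and 58.4% among regions of at least 30 tags. Regions lower by 1.5-fold in both numbered 768 and higher 79 on the authors' scaling, which holds all 398 and 79 of the 185. Thinned, they numbered 496 and 263, of which 259 and 99 were in the main sets, so at the depth of 7.42 M reads many regions near the limit cannot be told from those beyond it.

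Some named genes changed sign, none of them called outside the paired fit on the 4 libraries, and the cause was not tested. Abca1 was -0.068 on the authors' scaling, -0.023 with quantile normalization, -0.031 in edgeR, -0.018 in edgeR with the replicate block, -0.0496 in DESeq2, -0.13 with windows within 1 kb and -0.048 within 100 kb. Ctsd was -0.059 on the authors' scaling, -0.013 in edgeR, -0.021 in edgeR with the block, -0.032 in DESeq2 and -0.018 within 100 kb. Apoe was 0.10 within 1 kb. Leaving out 1 library, in fits without the replicate block, gave ranges that cross 0. Such a fit sets the lone library of a group against both replicates of the other, so differences between replicates enter the change. The ranges were -1.96 to 0.12 for 4930431P22Rik, -0.46 to 0.051 for Il12b, -1.36 to 0.11 for Ccl5, -0.53 to 0.15 for Cxcl10, -0.52 to 0.31 for Nfkbia and -0.18 to 0.23 for Abca1. They were -0.99 to 0.49 for Abcg1, -0.88 to 0.73 for Apoe, -0.35 to 0.20 for Scd2 and -0.021 to 0.066 for Ctsd. They were -2.04 to 0.23 for Ms4a4a, -2.76 to 0.16 for Cd38, -1.72 to 0.15 for Ms4a4c, -0.026 to 1.20 for Ptpn22 and -1.23 to 0.058 for Slamf7.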
